A study of Mus musculus with 12 samples.

Results

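The imprinted Dlk1-Dio3 cluster of mouse chromosome 12 was followed through 12 RNA-seq libraries of embryonic stem (ES) cells differentiated toward neuromesodermal progenitors, with and without the chromatin protein Smchd1. The 7 genes were taken by name (Dlk1, Meg3, Rian, Mirg, Rtl1, Dio3 and Begain). Of these, 5 had a row among the 25965 rows of the expression table, and Rian and Mirg were not analysed here. 4 of the 5 (Dlk1, Meg3, Rtl1 and Dio3) were among the 14063 rows tested. Begain was too low to be tested and is given as values.

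An imprinted gene is expressed mainly from the copy inherited from 1 parent. In this cluster the coding genes Dlk1, Rtl1 and Dio3 are known to be expressed from the paternal chromosome. The long noncoding RNAs Meg3, Rian and Mirg, with most of the cluster's microRNAs and small nucleolar RNAs, are expressed from the maternal chromosome. A methylated region between Dlk1 and Meg3 sets this pattern. Loss of Meg3 expression is a known hallmark of ES cells whose imprint at this locus is disturbed. Smchd1 is a noncanonical SMC-family protein that acts in X inactivation and in the silencing of some imprinted and clustered genes. The cells came from the inbred C57BL/6 strain, so parental alleles could not be told apart and every value is the sum of both copies.

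The ES lines, labelled male, were each derived from a single blastocyst and divided in 2 parts. The Smchd1 fl/fl part, with floxed alleles, was left untransduced. The Smchd1 del/del part received MSCV-Cre-puro, a retrovirus that carries Cre and a puromycin resistance gene, and was selected with puromycin. Deletion therefore cannot be told apart from transduction and selection in any comparison of genotypes. Both parts moved from 2i with LIF to serum with LIF, then lost LIF and received Fgf2, a Gsk3 inhibitor and finally Gdf11. Libraries were labelled day 1 (day 0 in the protocol, before differentiation), day 5 and day 8. Each of the 6 groups held 2 libraries, 1 from line 1 and 1 from line 3, so n = 2 for every group value. A p-value measures the spread between 2 lines only. Each gene had 1 spread shared by all 6 groups, so a p-value at 1 day also rests on the other days. Limma drew that spread toward the spread of genes of like level.

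Levels are log2 RPM (reads per M, or mega, reads), rescaled so that the median log ratio of the tested genes to the average library is 0. Between 1.51 and 8.67 M reads per library lay in genes. The shallowest library was fl/fl day 8 of line 3, whose column is also named as a merge. Smchd1 itself was lower in del/del in 6 of 6 pairs, with differences of -2.84, -2.07 and -2.43 at days 1, 5 and 8 (limma adjusted p = 0.00187, 0.0430 and 0.00229). Markers of neuromesodermal progenitors and caudal tissue (T, Cdx2, Nkx1-2, Fgf8, Wnt3a and Cyp26a1) summed to 1.88 to 2.63 RPM at day 1, 47.4 to 87.3 RPM at day 5 and 14.4 to 25.5 RPM at day 8. Wnt3a had 0 reads in both fl/fl day 8 libraries. In bulk RNA, fewer cells of a type and less RNA per cell cannot be told apart.

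In mm10, Begain lies on the minus strand at chr12:109032187-109068217, Dlk1 on the plus strand at chr12:109452823-109463336, Meg3 on the plus strand at chr12:109541001-109571726, Rtl1 on the minus strand at chr12:109589194-109600330 and Dio3 on the plus strand at chr12:110279068-110281097. GENCODE M21 places Rian (chr12:109603940-109661716) and Mirg (chr12:109729764-109749460) between Rtl1 and Dio3 on the plus strand. Dio3 is a single exon, and Rtl1 has 2 merged exon blocks. The start regions of Dlk1, Meg3 and Dio3 are shown because the genotypes parted most at these 3 genes. Each is 300 bases of RefSeq sequence (GRCm38.p6, plus strand) from 250 before to 50 after the start given by RefSeq. Every CG dinucleotide, the site of DNA methylation, is in capitals. The RefSeq start of Dio3 lies downstream of the start at chr12:110279068 given above, so its window also covers that start.
Dlk1, chr12:109452573-109452872: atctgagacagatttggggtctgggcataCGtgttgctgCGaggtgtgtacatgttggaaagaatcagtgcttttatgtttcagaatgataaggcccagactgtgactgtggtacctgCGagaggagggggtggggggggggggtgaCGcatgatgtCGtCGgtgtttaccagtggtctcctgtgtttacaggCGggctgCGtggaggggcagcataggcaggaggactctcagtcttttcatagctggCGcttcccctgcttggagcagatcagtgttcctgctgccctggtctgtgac
Meg3, chr12:109540746-109541045: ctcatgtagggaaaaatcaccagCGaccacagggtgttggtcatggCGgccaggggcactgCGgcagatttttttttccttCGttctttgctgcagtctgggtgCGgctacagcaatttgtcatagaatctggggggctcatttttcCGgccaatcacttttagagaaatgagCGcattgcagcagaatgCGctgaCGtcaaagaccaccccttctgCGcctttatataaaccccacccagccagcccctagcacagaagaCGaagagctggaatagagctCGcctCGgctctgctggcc
Dio3, chr12:110278980-110279279: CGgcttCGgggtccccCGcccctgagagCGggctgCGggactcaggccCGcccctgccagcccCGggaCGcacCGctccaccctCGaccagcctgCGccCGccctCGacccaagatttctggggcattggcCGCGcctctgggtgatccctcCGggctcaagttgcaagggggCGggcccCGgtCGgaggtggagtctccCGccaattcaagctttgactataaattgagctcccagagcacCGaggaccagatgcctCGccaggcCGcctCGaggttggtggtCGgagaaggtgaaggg
The Dio3 window held 25 CG dinucleotides, the Meg3 window 13 and the Dlk1 window 9, beside a median of 7 over 32851 promoters of the same length. RefSeq lists a second Meg3 start, whose window (chr12:109545148-109545447) held 1 CG dinucleotide and neither motif below. The letters TATAAA, searched on both strands, occurred 2 times in the Meg3 window, 1 time in the Dio3 window and 0 times in the Dlk1 window. The 2 in Meg3 overlap within 1 stretch (tttatataaa), 1 on each strand. The letters occurred at least 1 time in 13.6% of all promoters. TGCCGC, the hexamer of the imprint-maintaining zinc finger protein Zfp57, occurred 1 time in the Meg3 window and in neither other window. It was found in 11.6% of all promoters, and each copy overlaps a CG dinucleotide. These matches describe the letters of the windows, and no binding or methylation was measured.

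RefSeq lists 114 mature microRNAs between Begain and Dio3, 106 of them on the plus strand. Of these, 11 lie on the strand opposite to Rtl1 inside its annotated span. The maternal transcript that carries them is cut into microRNAs that pair perfectly with Rtl1 messenger RNA. They are shown because the sources used here do not give a strand setting for the read counting, so reads of Rtl1 and of this antisense transcript cannot be told apart. The 3 examples below carry their seed, bases 2 to 8, in capitals, and the 3 seeds differ.
mmu-miR-127-3p: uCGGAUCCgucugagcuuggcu
mmu-miR-136-5p: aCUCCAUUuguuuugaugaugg
mmu-miR-433-3p: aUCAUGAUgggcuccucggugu
Meg3 likewise overlaps an exon of the opposite-strand noncoding gene Gm26906, and 3 mature microRNAs (miR-1906, miR-770-5p and miR-770-3p) lie inside Meg3 on its own strand. The libraries measured total RNA by a standard Illumina protocol, and no microRNA level was analysed here.

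The strongest differences between the genotypes were in opposite directions at the paternally expressed genes of the cluster's 2 ends. At day 8, Dlk1 was 13.2-fold higher and Dio3 14.0-fold lower in del/del. Meg3 was 0.92 higher on the log2 scale and missed the threshold, and Rtl1 differed by 0.39, less than its standard error of 0.42. At day 8, 2 of the 4 tested genes passed at an adjusted p under 0.05, 1 in each direction, where 15.0% of all tested genes passed (1118 higher and 991 lower).

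**Figure D1:**
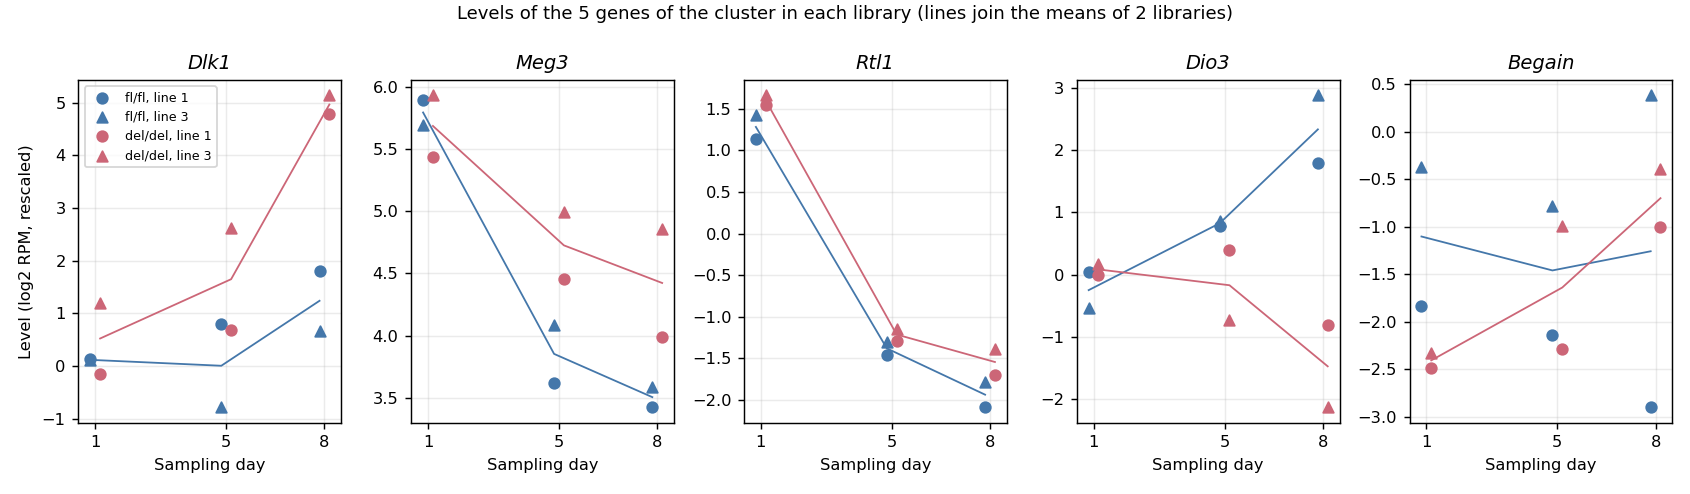
Level (rescaled log2 RPM) of the 5 measured genes of the cluster against sampling day; blue is fl/fl, red del/del, circles line 1, triangles line 3, and lines join the means of 2 libraries. Vertical axes differ between panels. Dlk1 in del/del reached 4.79 and 5.14 at day 8, and Dio3 in del/del lay below fl/fl, at -0.82 and -2.13 against 1.79 and 2.88.

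Dlk1 encodes a transmembrane protein of the Delta family without a canonical Notch-binding domain, and it is known as a marker of progenitors such as preadipocytes. In fl/fl its level was 0.12 in line 1 and 0.11 in line 3 at day 1, 0.79 and -0.78 at day 5, and 1.80 and 0.67 at day 8. In del/del it was -0.16 and 1.20 at day 1, 0.67 and 2.62 at day 5, and 4.79 and 5.14 at day 8. The groups overlapped at days 1 and 5, where only line 3 was higher in del/del, and did not overlap at day 8. Of the tested genes, 63.0% did not overlap between genotypes at day 8, 34.1% at day 5 and 37.2% at day 1.

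The day 8 difference of Dlk1 was 3.73 ± 0.71 (SE, limma adjusted p = 0.0141), the 47th highest of 14063. It was higher in both lines, by 2.99 in line 1 and 4.47 in line 3. Behind it lay 1167 and 1386 reads in del/del and 104 and 11 reads in fl/fl. The ratio of summed reads, corrected for depth by the same rescaling, was 9.99 (95% exact interval 8.28 to 12.1), which covers counting error only. The call was lost without fl/fl day 8 line 3 (3.16, adjusted p = 0.0803) and without del/del day 8 line 3 (3.55, adjusted p = 0.124).

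At day 5 the Dlk1 difference was 1.64 ± 0.71 and did not pass (adjusted p = 0.597). Without del/del day 5 line 1 it was 2.61. The lines diverged there: 39 against 38 reads in line 1, and 122 against 23 in line 3, a read ratio of 10.6 (6.73 to 17.3). At day 1 the difference was 0.41 ± 0.71. The step from day 1 to day 5 did not pass in fl/fl (-0.11 ± 0.71) or in del/del (1.13 ± 0.71, adjusted p = 0.230). The latter was 2.10 without del/del day 5 line 1 and 0.15 without del/del day 5 line 3. Within del/del, Dlk1 rose 9.96-fold between day 5 and day 8 (3.32 ± 0.71, adjusted p = 0.0144), where 11.9% of tested genes changed. That call was lost without del/del day 5 line 1 (2.35, 0.0634) and without either del/del day 8 library (adjusted p = 0.0609 and 0.115). Within fl/fl the same step was 1.23 ± 0.71 (adjusted p = 0.306), in a comparison in which 6.73% of genes passed. The difference between those 2 steps, tested as an interaction, was 2.08 ± 1.00 and did not pass (adjusted p = 0.380). That interaction called 0.00711% of tested genes.

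Dio3 encodes the deiodinase that inactivates thyroid hormone, and it is high in placenta and fetal tissue. In fl/fl its level was 0.04 in line 1 and -0.53 in line 3 at day 1, 0.79 and 0.86 at day 5, and 1.79 and 2.88 at day 8. In del/del it was -0.01 and 0.18 at day 1, 0.39 and -0.73 at day 5, and -0.82 and -2.13 at day 8. The means moved upward over the days in fl/fl and downward in del/del, and the groups did not overlap at days 5 and 8. No single step of either course passed the test. In fl/fl the steps were 1.07 ± 0.57 (adjusted p = 0.156) and 1.51 ± 0.57 (0.129), and in del/del -0.25 ± 0.57 (0.750) and -1.30 ± 0.57 (0.161). The fl/fl step from day 5 to day 8 was 2.06 without fl/fl day 8 line 1 and 0.96 without fl/fl day 8 line 3.

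The day 8 difference of Dio3 was -3.81 ± 0.57 (limma adjusted p = 0.00729), the 26th lowest of 14063. The log2 difference was -2.60 in line 1 and -5.01 in line 3. The reads were 103 and 51 in fl/fl against 24 and 9 in del/del, although the del/del libraries were the deeper. The read ratio of fl/fl to del/del was 10.4 (95% exact interval 7.09 to 15.6). Without del/del day 8 line 3 the difference was -3.15 and missed the threshold (adjusted p = 0.0721). At day 5 it was -0.995 ± 0.57 (adjusted p = 0.600) and at day 1 0.33 ± 0.57. The change of the genotype effect from day 5 to day 8 was -2.81 ± 0.81 (adjusted p = 0.294). With 1 library left out it ran from -3.47 to -2.16.

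Rtl1 is a gene derived from a retrotransposon and is required for placental capillaries. Its level in fl/fl was 1.14 in line 1 and 1.42 in line 3 at day 1, -1.46 and -1.31 at day 5, and -2.09 and -1.79 at day 8. In del/del it was 1.54 and 1.66 at day 1, -1.29 and -1.14 at day 5, and -1.70 and -1.39 at day 8. Rtl1 was higher in del/del in 6 of 6 pairs, and the groups did not overlap at any day, a pattern shared at each single day by between 34.1% and 63.0% of tested genes. The differences of 0.32, 0.17 and 0.39 (each ± 0.42) did not pass, and the day 5 one turned to -0.21 on the deposited scale and the day 8 one to -0.05 with 2 reads added. At day 8 the 2 fl/fl libraries held only 7 and 2 reads of Rtl1, and the del/del ones 13 and 15.

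The marked change of Rtl1 was with time. It fell between day 1 and day 5 by 2.67 ± 0.42 in fl/fl (6.35-fold, adjusted p = 0.000662) and fell by 2.82 ± 0.42 in del/del (7.05-fold, adjusted p = 0.00046). In these comparisons 40.9% of tested genes passed in fl/fl and 39.5% in del/del. The interaction was -0.15 ± 0.60 (adjusted p = 0.981). The step from day 5 to day 8 did not pass in either genotype (-0.56 and -0.33, each ± 0.42).

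Meg3 is the maternally expressed long noncoding RNA of the cluster and the first part of a long transcription unit that continues toward Rian and Mirg. Its level in fl/fl was 5.90 in line 1 and 5.69 in line 3 at day 1, 3.62 and 4.09 at day 5, and 3.42 and 3.59 at day 8. In del/del it was 5.44 and 5.93 at day 1, 4.46 and 4.99 at day 5, and 3.99 and 4.86 at day 8. All 4 undifferentiated libraries thus had Meg3 RNA, from 1700 to 2757 reads each, and the genotypes overlapped there. At days 5 and 8 both del/del libraries were above both fl/fl libraries.

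Between day 1 and day 5 Meg3 fell 3.84-fold in fl/fl (-1.94 ± 0.29, limma adjusted p = 0.000452) and 1.95-fold in del/del (-0.96 ± 0.29, adjusted p = 0.0225). The del/del call was lost without del/del day 1 line 3 (-0.71, 0.171) or del/del day 5 line 1 (-0.69, 0.134). The difference between the falls was 0.98 ± 0.41 and did not pass (adjusted p = 0.962), in an interaction that called 0% of tested genes (358 at an unadjusted p under 0.05). From day 5 to day 8 the changes were -0.35 ± 0.29 in fl/fl and -0.30 ± 0.29 in del/del, neither past the test.

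The genotype difference of Meg3 was -0.11 ± 0.29 at day 1, 0.87 ± 0.29 at day 5 (adjusted p = 0.597) and 0.92 ± 0.29 at day 8 (adjusted p = 0.0559). With the line as a replicate block, the day 8 difference passed (adjusted p = 0.0326). It also passed on the deposited scale (1.80, adjusted p = 0.0112), on which the median gene was shifted by 0.90, per M reads in genes (1.04, 0.0388), with 2 reads added (0.94, 0.0478) and without the filter on low values (0.0377). The day 8 values were larger in line 3 (1.27) than in line 1 (0.56), and without del/del day 8 line 3 the difference was 0.48 (adjusted p = 0.390). Without del/del day 8 line 1 it was 1.35. Meg3 was the only tested gene of the cluster that differed between the lines at an unadjusted p under 0.05 (0.39 ± 0.13 higher in line 3). Its adjusted p was 0.977, in a comparison that called 0.0427% of genes.

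Begain encodes a guanylate kinase-associated protein of synapses and marks the far end of the region from Dio3. Its levels in fl/fl were -1.84 and -0.37 at day 1, -2.14 and -0.78 at day 5, and -2.90 and 0.38 at day 8. In del/del they were -2.48 and -2.33, -2.29 and -0.99, and -1.01 and -0.39. Del/del lay below fl/fl without overlap at day 1, from 7 and 9 reads against 9 and 28, and overlapped it at days 5 and 8. At day 8 the lines went opposite ways, with a read ratio of del/del to fl/fl of 3.70 (1.25 to 14.8) in line 1 and 0.59 (0.27 to 1.40) in line 3. Begain never exceeded 30 reads in a library.

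**Figure D2:**
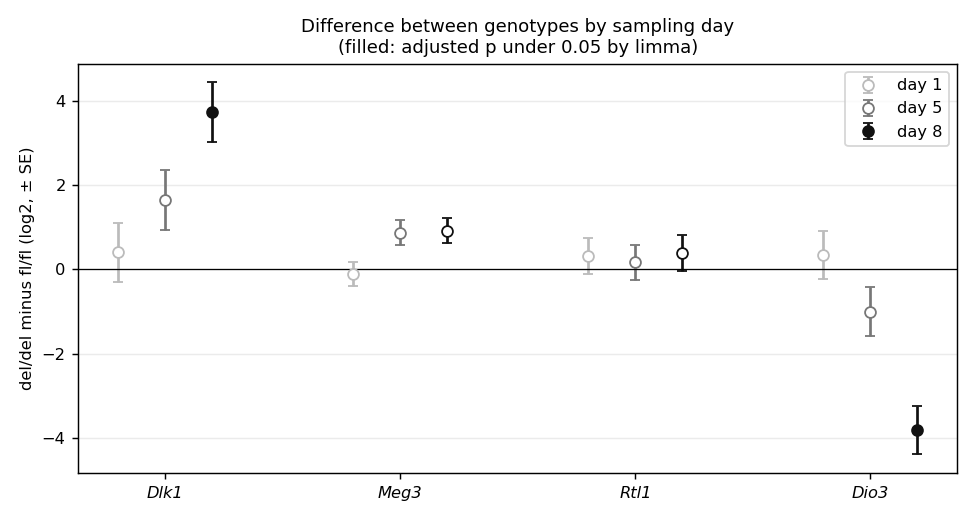
Difference between del/del and fl/fl (log2, limma estimate ± SE, 2 libraries per group) at each day for the 4 tested genes; filled points passed at an adjusted p under 0.05. Dlk1 at 3.73 and Dio3 at -3.81 on day 8 are the only filled points, and the values at day 1 lie between -0.11 and 0.41.

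At day 1 none of the 4 tested genes differed by genotype at an adjusted or an unadjusted p under 0.05. Of all tested genes 0.00711% passed there, which was 1 gene, Smchd1 itself. At day 5 none of the 4 passed the limma test, where again only Smchd1 (0.00711% of all genes) did, and Dlk1 and Meg3 were under 0.05 before adjustment. Averaged over the 3 days the differences were 1.92 ± 0.41 for Dlk1 (adjusted p = 0.0639), -1.49 ± 0.33 for Dio3 (0.0639), 0.56 ± 0.17 for Meg3 (0.0960) and 0.29 for Rtl1 (0.473). None passed, against 0.107% of all genes after adjustment. Before adjustment 3 of the 4 were under 0.05, but the share of all genes there, as at day 5, is not given here. With 1 library left out the averaged differences ran from 1.60 to 2.25 for Dlk1, from -1.71 to -1.27 for Dio3 and from 0.42 to 0.71 for Meg3. With voom on the recovered reads the counts at days 1, 5 and 8 were 0, 0 and 2.

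Expressed per kilobase of annotated exon, the order of the genes changed with day and genotype. It depends on the annotated lengths, which were 18.1 kb for Meg3, 5.66 kb for Dlk1 and 2.03 kb for Dio3. In fl/fl at day 1 Meg3 led with 3.08 RPM per kb (2.86 to 3.29). Dio3 (0.423) and Rtl1 (0.384) followed with overlapping libraries, then Dlk1 (0.191) and Begain (0.119). The other undifferentiated group, del/del, also had Meg3 first at 2.89. In fl/fl at day 8 Dio3 led with 2.67 (1.70 to 3.63), above Meg3 at 0.629, and the libraries of Meg3 (0.593 to 0.664) overlapped those of Dlk1 (0.281 to 0.617). Rtl1 was at 0.0412 and Begain at 0.163, with overlapping libraries. In del/del at day 8 Dlk1 led with 5.55 (4.88 to 6.22), above Meg3 at 1.24 (0.877 to 1.60) and Dio3 at 0.196 (0.113 to 0.280). Begain at 0.143 overlapped Dio3, and Rtl1 was at 0.0541. In RPM, Dlk1 (27.6 and 35.2) overlapped Meg3 (15.9 and 29.0) in this group. At day 5 Meg3 was at 0.809 and Dio3 at 0.874 in fl/fl, with overlapping libraries. In del/del at day 5 Meg3 was at 1.49, above Dlk1 at 0.683 and Dio3 at 0.471.

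The neighbours outside the cluster were read for the same contrast. Within 1 Mb beyond Begain 13 genes had rows, of which 12 were tested. At day 8, 3 of the 12 rose in del/del and 1 fell, with a median difference of 0.53, beside 0.02 for all tested genes, of which 15.0% passed. Voom called 2 of the 12. Before adjustment 7 were under 0.05, without the share of all genes beside them. On the deposited scale 7 rose and none fell (median 1.41), and without fl/fl day 8 line 1 the median was 0.53. Evl, an actin regulator, was higher by 0.72 ± 0.13 (adjusted p = 0.0128). Eml1, a microtubule-binding protein, was higher by 1.52 ± 0.35 (0.0228). Slc25a47, a mitochondrial carrier, was higher by 2.30 ± 0.66 (0.0424), with 0 reads in fl/fl day 8 line 3. The transcription factor Yy1 was lower (-0.49 ± 0.14, 0.0434), but was higher by 0.39 on the deposited scale. Without fl/fl day 8 line 3, or without del/del day 8 line 1, only Evl passed, and without del/del day 8 line 3 none did. With the line as a replicate block Evl and Eml1 passed and the other two did not.

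Within 1 Mb beyond Dio3 16 genes had rows, of which 14 were tested. None passed at day 8 by limma (3 at an unadjusted p under 0.05, and 0 by voom), and their median difference was -0.0002. 1 passed on the deposited scale (Brp44l-ps, higher), with a median of 0.88. The nearest tested gene beyond Dio3 was Ppp2r5c, a regulatory subunit of protein phosphatase. When fl/fl day 8 line 1 was left out, 2 of the 14 passed (Hsp90aa1 and Tecpr2, both lower).

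**Figure D3:**
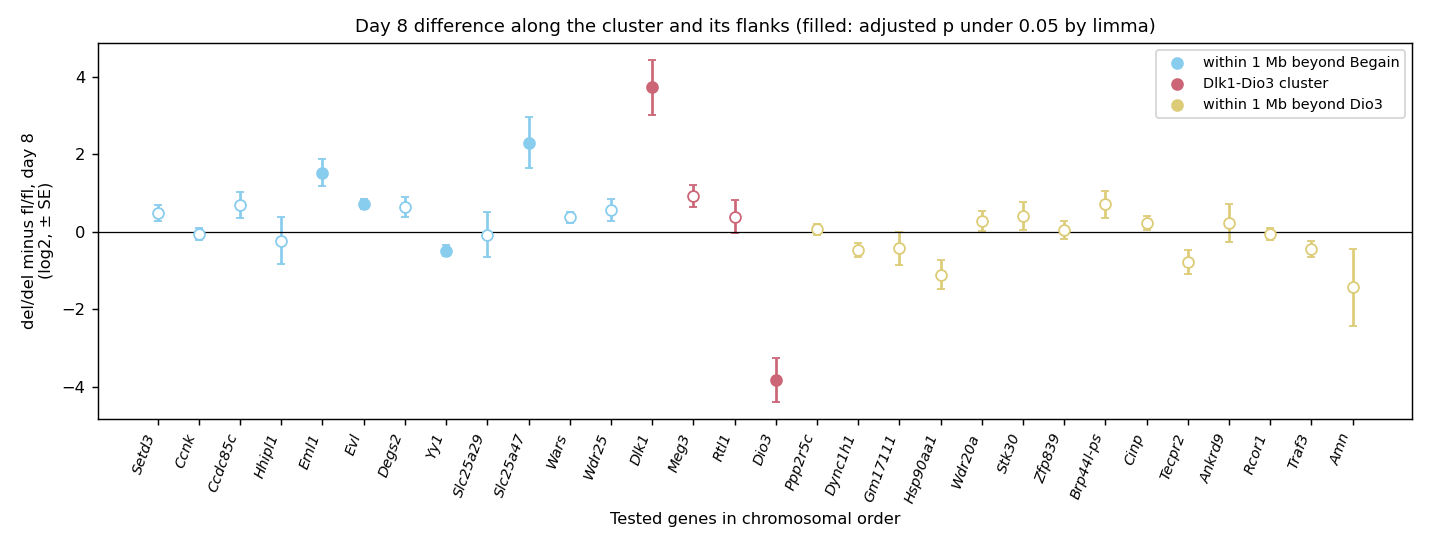
Day 8 difference between del/del and fl/fl (log2, limma estimate ± SE) for the tested genes in chromosomal order, blue within 1 Mb beyond Begain, red the cluster, yellow within 1 Mb beyond Dio3; filled points passed at an adjusted p under 0.05. Dlk1 and Dio3 lie farthest from 0, Meg3 and Rtl1 between them are at 0.92 and 0.39, and no gene beyond Dio3 is filled.

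Other imprinted genes were taken as 2 lists by their expressed allele. Of 12 maternally expressed genes tested, 1 rose at day 8 and none fell, with a median of -0.29. That was Grb10, an adaptor that restrains growth signalling, at 1.74 ± 0.32 (3.34-fold, adjusted p = 0.0131). H19 at -1.48 ± 0.50 (0.0650), Zim1 at 2.35 ± 0.76 (0.0594) and Cdkn1c at -0.95 ± 0.36 (0.0897) did not pass. Of 18 paternally expressed genes tested, 4 rose and 2 fell, with a median of 0.00. Mest, a hydrolase-like gene of mesoderm, rose by 2.74 ± 0.42 (0.00743), and Peg12, of the Snrpn cluster, by 2.75 ± 0.46 (0.00883). Sfmbt2, a Polycomb-related gene needed in trophoblast, fell by 2.16 ± 0.28 (0.00545), and Peg10, a placental gene of retrotransposon origin, fell by 1.33 ± 0.27 (0.0157). Of all tested genes 15.0% passed at day 8, 1118 higher and 991 lower. Both directions thus occurred among all tested genes, as among these paternally expressed genes and for Dlk1 and Dio3.

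Without fl/fl day 8 line 3, the calls that remained in these 2 lists were Sfmbt2, Mest and Peg12. Without del/del day 8 line 3 only Sfmbt2 remained. Without fl/fl day 8 line 1 the median of the maternally expressed list was 0.12. The number of all genes past the test changed widely between fits with 1 library left out. Calls from such fits, in every list and flank, therefore cannot be set against the 15.0%. Of the retrotransposon-derived Gag genes related to Rtl1, 4 of 14 listed names were tested. Peg10 was the only one past the day 8 test, where 15.0% of all tested genes passed.

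Genes that maintain imprints or act on this cluster were read beside the fall of Meg3 and Rtl1 after day 1. Between day 1 and day 5, 14 of the 19 fell and 1 rose in fl/fl, and the same counts held in del/del, with medians of -0.76 and -0.99, beside -0.04 and 0.03 for all tested genes. Of all tested genes, 40.9% passed in fl/fl (2513 lower) and 39.5% in del/del (2574 lower). The hydroxymethylating enzyme Tet1 fell by 3.19 ± 0.18 in fl/fl and fell by 3.40 ± 0.18 in del/del. The methyltransferase Dnmt3b fell by 2.51 ± 0.21 and fell by 2.73 ± 0.21. In the same order Dnmt3a fell by 1.70 and fell by 1.62, and the Polycomb cofactor Jarid2 fell by 1.70 and fell by 1.78. No gene of this list passed the genotype test at day 1 or day 5, where of all tested genes only Smchd1 did.

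At day 8, 4 of the 19 were higher in del/del and 1 lower, where 15.0% of all genes passed, with a median of 0.08. On the deposited scale 7 were higher and 0 lower (median 0.96), so the lower call of Dnmt3l was lost there. Dnmt3l, the cofactor of de novo methylation, was lower (-1.35 ± 0.23, adjusted p = 0.00963). Ezh2, the Polycomb methyltransferase, was higher by 0.83 ± 0.17 (0.0168), Dnmt3a by 0.50 ± 0.11 (0.0213) and Aff3, a factor that binds this cluster's control region, by 1.29 ± 0.31 (0.0241). Dppa3, which protects imprints, was the remaining gene past the test. Dppa3 and Dnmt3l remained past the test without fl/fl day 8 line 3. Without del/del day 8 line 1 Dnmt3l alone did, and without del/del day 8 line 3 none did.

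Dlk1 is a relative of the Notch ligands, so the Notch pathway was read beside it. Of 22 genes 19 were tested, and 4 rose and none fell in del/del at day 8, where 15.0% of all genes passed, with a median of 0.26. Voom called 2 of the 19, and on the deposited scale 8 were higher (median 1.14). Hes1, a transcriptional repressor and Notch target, was 3.21-fold higher (1.68 ± 0.38, adjusted p = 0.0204). Lfng, a glycosyltransferase that modifies Notch receptors, was 5.11-fold higher (2.35 ± 0.58, 0.0268). The receptor Notch3 was higher by 0.64 ± 0.16 (0.0288). Dlk2, the paralogue of Dlk1, was higher by 2.50 ± 0.74 (0.0448), with 54 and 60 reads in del/del and 14 and 0 in fl/fl. None of the 4 passed without fl/fl day 8 line 3, nor without del/del day 8 line 1 or line 3.

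Dio3 acts on thyroid hormone, and 7 of 12 genes of that pathway were tested. At day 8, 2 were higher in del/del and 1 lower, where 15.0% of all tested genes passed, with a median of -0.035. Crym, a cytosolic thyroid hormone-binding protein, was higher by 4.93 ± 0.72 (adjusted p = 0.00729), with 459 and 383 reads in del/del and 26 and 0 in fl/fl. The receptor Thra was higher by 2.16 ± 0.47 (0.0186). Klf9, a known thyroid hormone response gene, was lower (-1.53 ± 0.25, 0.00868). The activating deiodinases Dio1 and Dio2 had 0 reads in all 4 day 8 libraries. Crym alone remained past the test without fl/fl day 8 line 3, and none did without del/del day 8 line 3.

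**Figure D4:**
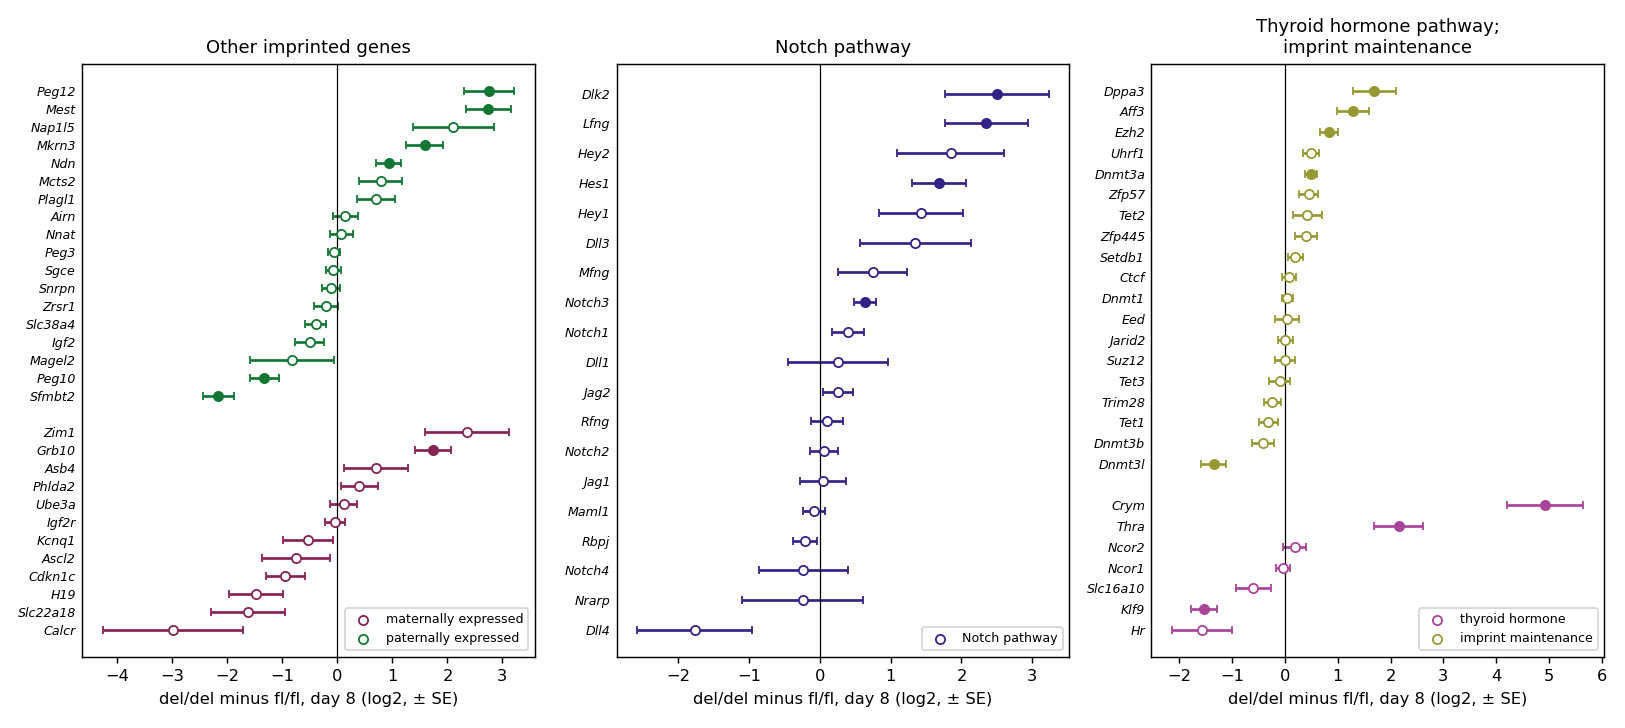
Day 8 difference between del/del and fl/fl (log2, limma estimate ± SE) for other imprinted genes (left), the Notch pathway (middle) and the thyroid hormone and imprint maintenance lists (right); filled points passed at an adjusted p under 0.05. Peg12 and Mest stand at the upper end of the paternally expressed genes, Sfmbt2 and Peg10 at the lower end, and Crym at 4.93 lies farthest to the right of its panel.

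Over all these lists (79 tested entries, with Peg10 in 2 lists), none passed the genotype test by limma at day 1 or day 5. Of all tested genes only Smchd1 passed at those days. The numbers at an unadjusted p under 0.05 were 0 and 9, without the share of all genes beside them, and voom called 0 at both days. At day 8, 20 of the 79 entries passed by limma, where 15.0% of all tested genes did, and 16 by voom. On the deposited scale 3227 of all tested genes were higher and 68 lower at day 8, with the median gene at 0.90. There the maternally expressed list had 2 genes higher and 0 lower, the paternally expressed list 7 and 1, and the thyroid hormone list 2 and 0. Their medians were 0.59, 0.88 and 0.85.

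Markers of other cell types moved with the day 8 groups, between which 15.0% of all tested genes passed. All 9 fibroblast or mesenchyme markers (Col1a1, Col1a2, Col3a1, Thy1, Postn, Fbln2, Loxl1, Dcn and Lum) had a higher mean in del/del, and 3 passed. Their summed level was 63.1 to 231 RPM in fl/fl and 472 to 588 RPM in del/del, and none was at 0 in both libraries of a day 8 group. Their median difference was 1.86 with all libraries and 2.54 without fl/fl day 8 line 1. The calls were lost without any 1 of the other 3 day 8 libraries. Dlk1 was highest in the libraries in which this sum was highest, but the order differed elsewhere. In fl/fl day 8 line 1 the sum was 231 RPM and Dlk1 3.49 RPM, against 47.7 RPM and 6.14 RPM in del/del day 5 line 3. Del/del day 5 line 3, with the higher Dlk1 of its group, had that sum of 47.7 RPM against 29.8 RPM in line 1. That library also had 38.7 RPM of paraxial mesoderm markers against 9.13 RPM in line 1. Before differentiation, at day 1, the paraxial mesoderm markers summed to 12.6 to 14.1 RPM in fl/fl and 11.6 to 13.8 RPM in del/del. The sum was thus not particular to differentiated cells. At day 8 these markers summed to 5.50 to 8.28 RPM in fl/fl, with Meox1 at 0 reads in both libraries, and to 12.9 to 21.2 RPM in del/del. There 2 of the 5 tested (Tcf15 and Msgn1) were higher, with a median difference of 1.75. On the deposited scale 7 of the 9 fibroblast or mesenchyme markers and 4 of the 5 paraxial mesoderm markers were higher. The part of these cell types in the Dlk1 difference was not tested.

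Of the 9 trophoblast markers listed, 8 were tested, and 7 passed as lower in del/del at day 8, where 15.0% of all tested genes did. With the line as a replicate block 6 passed, without Prl3b1. Their sum was 232 to 610 RPM in fl/fl and 81.8 to 118 RPM in del/del, where Elf5 had 0 reads in both libraries. Extraembryonic endoderm markers summed to 805 to 1212 RPM in fl/fl and 389 to 525 RPM in del/del, with Ttr and Apoa1 at 0 reads in both del/del libraries. Of 9 tested, 3 were lower (Col4a1, Sparc and Lamb1), while Gata6, Gata4, Sox17, Sox7, Foxa2 and Dab2 did not pass. At day 1, before differentiation, the same sum was 88.6 to 92.4 RPM in fl/fl and 80.7 to 82.1 RPM in del/del. Dio3 was highest in fl/fl day 8 line 3, which had the highest trophoblast sum, while at day 5 the trophoblast sums of the genotypes overlapped (214 to 292 and 210 to 271 RPM). Pluripotency markers summed to 65.6 to 68.9 RPM in fl/fl and 36.2 to 44.4 RPM in del/del at day 8, and 2 of 6 were lower. On the deposited scale 4 of the 8 tested trophoblast markers were lower, none of the 9 extraembryonic endoderm markers was, and 1 pluripotency marker (Nanog) was higher with none lower. Without fl/fl day 8 line 3 no gene of these marker lists passed at day 8, and without del/del day 8 line 3 Sox17 alone did. The part of these cell types in the Dio3 difference was not tested.

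**Figure D5:**
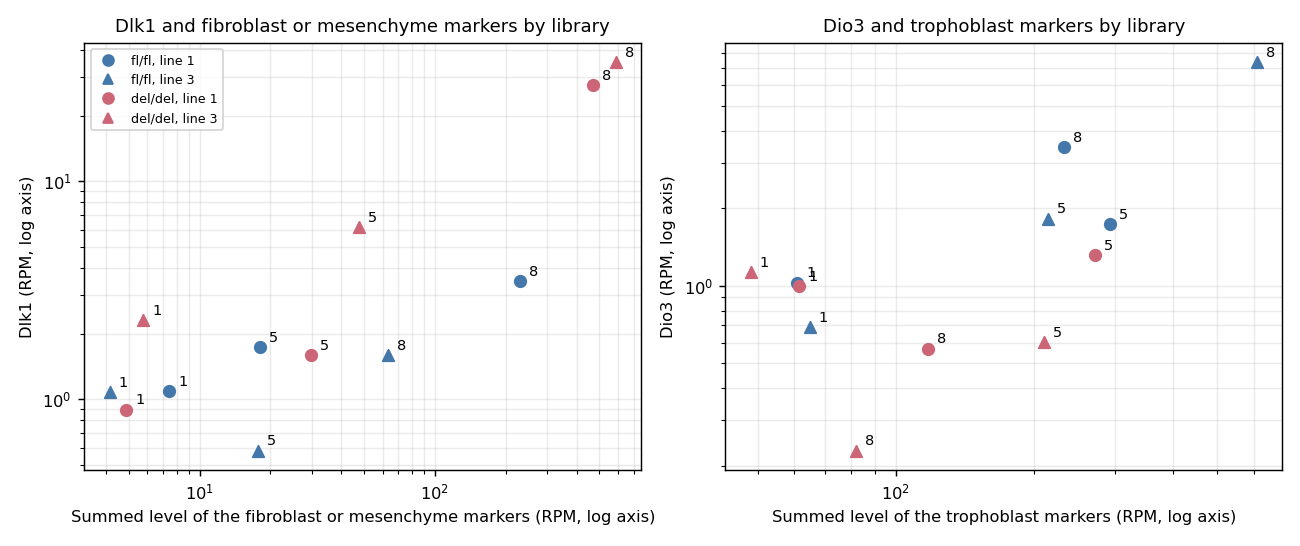
Left, Dlk1 against the summed fibroblast or mesenchyme markers; right, Dio3 against the summed trophoblast markers; all axes are RPM on a log scale, each point is 1 library, numbers give the day, blue is fl/fl, red del/del, circles line 1 and triangles line 3. The 2 del/del day 8 libraries have the highest Dlk1 at marker sums of 472 and 588 RPM, and fl/fl day 8 line 3 has the highest Dio3 at 610 RPM.

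The genes whose levels followed Dlk1 most closely over the 12 libraries were ranked by Pearson correlation, as a description only, since the libraries share days and lines. For Dlk1 they were Tmod2 (0.96), Itpripl1 (0.95), Vcam1 (0.95), Mfap2 (0.95) and Gpr137 (0.95). For Meg3 they were Rbm10 (0.97), Dctd (0.97), Wasf3 (0.97), Asrgl1 (0.96) and Brip1 (0.96). Ranked by Spearman correlation, the values of these genes were 0.78 to 0.92 for Dlk1 and 0.94 to 0.95 for Meg3.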

How the data were processed

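The authors deposited log2 RPM (reads per M reads) per gene, per the labels and the file headers. The submitters' processing notes name TopHat2 (version 2.0.12), bcl2fastq, edgeR and the mm10 genome build. How reads were assigned to genes, and on which strand, was not stated in what was used here. Reads were recovered from the deposited values, because within each library they step by the worth of 1 read (100% whole at a tolerance of 0.02 reads, with 0 reads entered as 0.9). The authors divided by 14.9 to 34.0 M reads a library, and genes of the table held 10.1 to 27.8% of these.

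Each library was rescaled by the median log ratio of the tested genes, those with a deposited value above 0 in at least 2 libraries (14063 of 25965). The test was limma-trend (limma 3.58.1 under R 4.3.3) on the means of the 6 groups, with a line term for the line comparison. P-values were adjusted by Benjamini-Hochberg over all tested genes, with a threshold of 0.05, and the fit was tested on simulated data. Tables and figures used Python 3.11.15, scipy 1.17.1 and matplotlib 3.10.9. Alternatives were other scalings, 2 reads added, other filters, voom, single days, the line as a block, and leaving out each library. Lines 1 and 3 pair the samples, since each was split into both genotypes; deviations of same-line libraries correlated at -0.15 to 0.24. Exon lengths came from GENCODE M21 and sequences from RefSeq (GRCm38.p6). Named genes were the members, up to 4 of smallest p per list and comparison, up to 4 flanking genes past the test, and the 5 genes most correlated with Dlk1 and with Meg3. Marker genes, Dppa3, Brp44l-ps, Hsp90aa1, Tecpr2, Ppp2r5c, Dio1 and Dio2 were named after their values were seen. The members and lists were chosen with earlier results of these data known. 1 gene of the lists is not reported here.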

Additional observations from a re-analysis of the deposited data

How the results depend on the processing

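At 2 libraries per group, single libraries decided many calls. Of the 4 tested genes, the number past the day 8 genotype test was 2, was 0 under the stricter filter (above 1 in at least 6 libraries), which leaves Dlk1 and Dio3 untested, was 0 with only the 4 libraries of the day, and ran from 0 to 3 when 1 library was left out. For the other comparisons, the number averaged over days was 0 and became 2 without the filter (0 to 3 with 1 library left out). Under the stricter filter, which keeps only Meg3 of the 4, the number for day 5 minus day 1 was 1 in fl/fl and 1 in del/del, and for day 8 minus day 5 in del/del 0. With 1 library left out it was 1 to 2 for day 5 minus day 1 in del/del, 0 to 1 for day 8 minus day 5 in each genotype, 0 to 1 for the genotype test at day 5 and 0 to 1 for the interaction of days 5 and 8.

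Directions that reversed were all of differences that did not pass, except Yy1 at day 8 (0.39 on the deposited scale). On that scale Meg3 was 0.051 at day 1 by genotype and 0.40 for day 8 minus day 5 in del/del, and Rtl1 was -0.21 at day 5 by genotype and 0.37 for day 8 minus day 5 in del/del. With 2 reads added Rtl1 was -0.055 at day 8 by genotype and -0.24 for its interaction, and with voom Dio3 was 0.022 between lines. With 1 library left out, Dlk1 ran from -0.28 to 1.09 at day 1, from -0.90 to 0.67 for day 5 minus day 1 in fl/fl and from -0.20 to 0.50 between lines. Meg3 ran from -0.35 to 0.14 at day 1, from -0.74 to 0.13 for day 8 minus day 5 in del/del and from -0.39 to 0.48 for the interaction of days 5 and 8, and Dio3 from -0.81 to 0.30 for day 5 minus day 1 in del/del. The cause of these changes was not tested.

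The number of all genes called by genotype at day 8 was 2109, and ran from 0 (only the 4 libraries of the day) to 3295 (deposited scale), and from 55 to 4655 with 1 library left out. For day 8 minus day 5 in fl/fl the count was 946, with 176 to 1024 across settings and 56 to 3242 with 1 library left out, and in del/del 1675, with 358 to 2876. For day 5 minus day 1 it was 5747 in fl/fl, with 2657 to 6681 across settings and 3535 to 6795, and 5561 in del/del, with 3380 to 6713. By genotype at day 5 it was 1, with 0 to 1571, averaged over days 15, with 1 to 3051, for the interactions 0, with 0 to 285, and 1, with 0 to 2176, and between lines 6, with 3 to 7. On the deposited scale 3227 genes were higher and 68 lower at day 8, against 1118 and 991. The replicate block changed the call of Meg3 at day 8 and of Yy1, Slc25a47 and Prl3b1, and no other call of a cluster gene. Begain and Rtl1 at day 8 rest on few reads.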
